A study of Mus musculus with 12 samples.

Results

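Carboxylesterases are serine hydrolases that cut ester bonds, and this account covers 10 of their genes in mouse liver: Ces1b, Ces1c, Ces1d, Ces1e, Ces1f, Ces1g, Ces2a, Ces2b, Ces3a and Ces3b. They were picked by symbol from a table of 24795 genes, with their Scly KO against WT values already known, and all 10 were among the 12009 genes with enough counts to be tested. The genotype differences below are therefore given as a description, with no p for a single gene.

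Liver RNA of male mice was sequenced. From weaning, and for a minimum of 8 weeks, the mice were fed 0.08 ppm selenium (low selenium, LS) or 0.25 ppm selenium (medium, adequate selenium, MS), supplied as sodium selenite. Scly KO mice lack selenocysteine lyase, the enzyme that releases selenium from selenocysteine, and were kept as a homozygous colony. WT mice were C57BL/6N bred in-house, so WT and KO mice came from separate colonies. The 12 libraries form 4 groups of 3: WT LS (S1, S2, S3), WT MS (S4, S5, S6), KO MS (S7, S8, S9) and KO LS (S10, S11, S12). Whether each library is a separate mouse is not given in the sources used here, so p-values measure the spread between libraries.

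In liver, carboxylesterases sit mostly in the lumen of the endoplasmic reticulum, where they hydrolyse drugs, pesticides and other xenobiotics, and some of them act on stored triglyceride and cholesteryl ester. Enzymes of the Ces1 group generally prefer esters with a large acyl part and a small alcohol, and enzymes of the Ces2 group the reverse. The family expanded by tandem duplication in rodents, which left neighbouring copies that are much alike.

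The copies were alike enough to matter for counting. All 10 genes lie on chromosome 8 (mm10), the Ces1 genes on the minus strand and the Ces2 and Ces3 genes on the plus strand, with 11198295 bases between Ces5a, the last gene of the Ces1 side, and Ces2a. In their coding sequences, Ces3a and Ces3b were 95.3% identical and Ces1b and Ces1c 88.7%. The sequences below are the longest coding stretch, without any difference, in each of these pairs (118 and 194 bases). A read that falls wholly inside one of them cannot be placed in either gene from its own letters, which a read longer than the stretch cannot do.
Ces1b and Ces1c: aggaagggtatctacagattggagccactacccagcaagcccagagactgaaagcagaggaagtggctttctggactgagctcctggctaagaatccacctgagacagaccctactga
Ces3a and Ces3b: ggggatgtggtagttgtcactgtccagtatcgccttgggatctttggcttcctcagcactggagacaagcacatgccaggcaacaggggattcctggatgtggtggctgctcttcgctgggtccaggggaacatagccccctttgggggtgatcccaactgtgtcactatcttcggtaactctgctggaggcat

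The deposited counts carry traces of this sharing, because the authors' expectation-maximization counting divides a read among the genes it matches and so leaves fractions. Counts that were not whole (by more than 0.05) were found in 11 of 12 libraries for Ces1b and Ces1c, in 10 for Ces3a and Ces3b, and in 2 for Ces1e. Ces1d, Ces1f, Ces1g, Ces2a and Ces2b were within 0.05 of a whole count in every library. Smaller fractions did occur in Ces2a (such as 497.002 in S1 and 1037.99 in S4) and in Ces1g (572.017 in S5). Of all 75-base stretches of its transcript, Ces1d, Ces1f and Ces1g had 100% found in no transcript of another gene, Ces1e 98.95%, Ces2b 98.6%, Ces1b 95.5% and Ces1c 93.3%. Ces3b had 84.6% and Ces3a 81.7%, each sharing with the other, and Ces2a had 85.2%, sharing with Gm7208, which has no row of that name in the count table. The ambiguity depends on read length. With stretches of 150 bases the share was 100% for Ces1b and Ces1c, 98% for Ces3b, 97.6% for Ces3a and 96.0% for Ces2a. The levels of Ces1b, Ces1c, Ces3a and Ces3b, and of Ces2a, are therefore less certain than those of the other members. Ces2b was most like Ces2c (91.3% identical in coding sequence), a neighbour with fractional counts in 12 libraries.

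Ces1g could be told apart from its neighbours at a short site as well. The primers listed by the study for its quantitative PCR matched the longest coding transcript of Ces1g exactly and that of no other family member, and they frame 130 bases inside the coding sequence. They are printed with the nearest site of the forward primer in another member, Ces1d, where capitals mark the 4 bases that differ (G3T, T13C, T14A and C20A, counted from the 5′ end with the primer's base first). In the other members the reverse primer had at least 6 differences at its best site.
Ces1g forward primer: aggcctacccaattcttaac
Ces1d at the nearest site: agTcctacccaaCActtaaA
Ces1g reverse primer: ccgaacataatgtctccaat

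Before the values, several libraries need a description. Counts per library totalled 4797067 to 11762165, and Scly was at 73.1 to 105 CPM (counts per 1e+06 after TMM scaling) in WT and 4.84 to 6.90 CPM in KO libraries, so no library went against its genotype label. S12 (KO LS) stood apart: 5 bile duct markers summed to 285 CPM there and to 22.8 to 41.4 CPM elsewhere, 8 hepatocyte markers to 63890 CPM against 77890 in S1 and 100200 to 123800 in the other 10, and its TMM factor was 1.535 against 0.751 to 1.08. S7 and S8 (KO MS) had the ribosomal RNA precursor Rn45s at 16.99% and 19.86% of counts, against 2.447% to 9.23% in the others. No pancreas marker was seen in any library. Values that these libraries move by much are given with and without them.

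Measured per kilobase of exon, so that genes can be compared, the mean level over all 12 libraries spanned a wide range. Ces1c, which encodes the esterase that rodents secrete into plasma, was highest at 1127 ± 308 CPM per kb (SD, n = 12). Ces3a followed at 567 ± 150 CPM per kb, and then Ces1d, the triacylglycerol hydrolase that mobilizes stored fat for very-low-density lipoprotein (VLDL), at 225 ± 92.1 CPM per kb. Ces3b was at 143 ± 49.5 and Ces1f at 111 ± 36.7 CPM per kb, and these neighbours in the order did not differ beyond their spread. With the longest transcript as the length in place of all exons, Ces1f (190 CPM per kb) moved above Ces3b (153 CPM per kb). Ces2a (64.0 ± 21.1 CPM per kb) and Ces1e (63.7 ± 21.1 CPM per kb) were level, Ces1g was at 41.6 ± 18.6 and Ces1b at 16.4 ± 5.60 CPM per kb. Ces2b was nearly absent at 0.238 ± 0.397 CPM per kb.

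The rest of the family was mostly lower. Ces2e reached 82.2 CPM per kb, Ces2c 13.3, Ces2g 13.1, Ces4a 0.676 and the pseudogene Ces2d-ps 0.588. Ces1a had 4 counts and Ces2h 21 counts over all 12 libraries, Ces2f and Ces5a had 0, and Ces1h was not found as a row of the table.

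**Figure D1:**
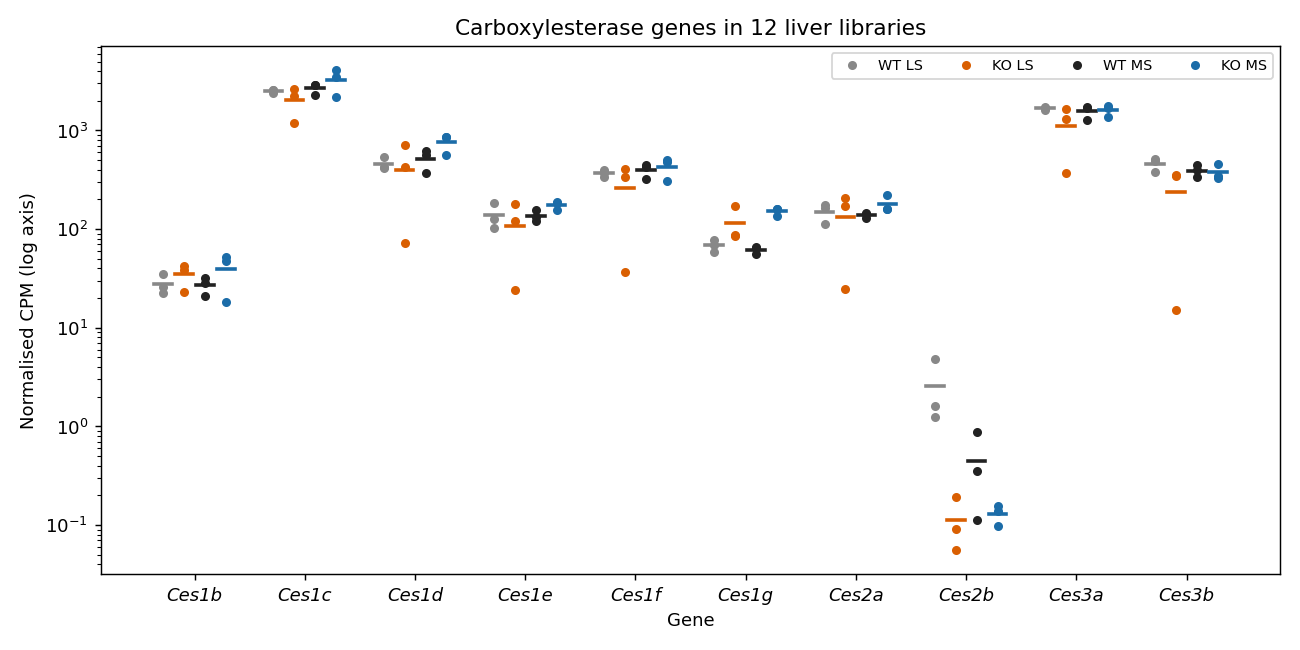
Normalised CPM (log axis) of the 10 carboxylesterase genes, where each point is a library and each bar the mean of 3 libraries of WT LS, KO LS, WT MS or KO MS. One orange point, S12, lies far below its group in Ces1d, Ces1e, Ces1f, Ces2a, Ces3a and Ces3b, and Ces2b lies below 5 CPM throughout.

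In these libraries Ces1g, an enzyme that in mice acts on liver triglyceride and restrains VLDL secretion, was higher in Scly KO than in WT liver on both diets. The study's quantitative PCR of male liver (listed as Cesg1) gave a higher KO mean on adequate selenium only. Its KO mean on low selenium was below that of WT. In the low selenium libraries Ces1g was at 58.7, 77.1 and 69.4 CPM in WT (S1, S2, S3) and at 85.2, 173 and 87.8 CPM in KO (S10, S11, S12). On adequate selenium it was at 56.2, 63.9 and 65.5 CPM in WT (S4, S5, S6) and at 135, 161 and 159 CPM in KO (S7, S8, S9). Every KO library lay above every WT library on each diet and across diets, and on low selenium S11 stood well above the other 2 KO libraries. Of all 12009 tested genes, 13 (0.108%) had all 6 KO libraries above all 6 WT libraries, and Ces1g was the only member among them. In 10 genes (0.0833%) all KO libraries lay below all WT libraries, and no member was among these.

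The log2 fold change of Ces1g (Scly KO over WT) was 1.29 ± 0.274 (SE, n = 3 per group) on adequate selenium and 0.75 ± 0.272 on low selenium. Over the 24 alternative settings it ranged from 1.14 to 1.38 on adequate selenium. On low selenium it ranged from 0.33, without S11, to 1.02, with scaling to library totals alone. Without S12 it was 0.89 on low selenium, and without S7 and S8 it was 1.35 on adequate selenium.

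A ratio within a library does not depend on scaling between libraries. Of the summed counts of the 6 Ces1 members, Ces1g made up 1.69%, 2.15% and 1.88% in WT LS and 1.77%, 1.53% and 1.60% in WT MS. It made up 2.62%, 4.19% and 6.05% in KO LS and 2.32%, 3.09% and 4.72% in KO MS. All 6 KO libraries were above all 6 WT libraries here too, but the order among KO libraries differed from that of the level: S12 was lowest but one by level and highest by share. In that library Ces1c, Ces1d, Ces1e and Ces1f were at their lowest of the 12, whereas Ces1b (42.5 CPM) was not low.

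**Figure D2:**
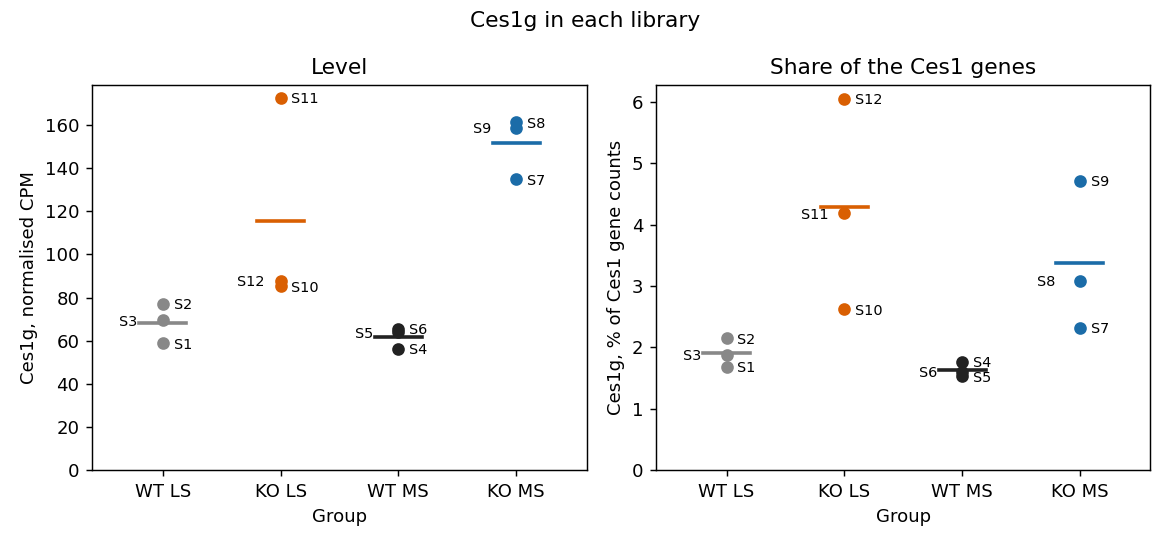
Ces1g in each library as normalised CPM (left) and as a percent of the summed counts of the 6 Ces1 members (right), with bars for the mean of 3 libraries. WT libraries lie between 56.2 and 77.1 CPM, and KO libraries between 85.2 and 173 CPM.

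The region around the start of Ces1g is shown because Ces1g is the member with KO and WT libraries apart on both diets. It is a window of 300 bases around the start, chr8:93337160-93337459 on the minus strand of GRCm38.p6 (RefSeq), and RefSeq starts of this kind were found for 6 of the 10 members (Ces1b, Ces1c, Ces1e, Ces1g, Ces2a and Ces3b). Capitals mark matches to CCAAT, once on each strand, and to TATAAA on the other strand.
Ces1g promoter: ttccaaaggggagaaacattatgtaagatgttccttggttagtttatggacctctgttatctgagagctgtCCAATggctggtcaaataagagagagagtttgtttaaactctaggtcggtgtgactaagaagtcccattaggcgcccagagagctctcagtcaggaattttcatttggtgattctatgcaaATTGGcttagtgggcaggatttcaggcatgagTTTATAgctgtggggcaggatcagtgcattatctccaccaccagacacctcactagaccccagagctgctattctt
Of 32851 RefSeq promoters of the same length, 37.4% hold CCAAT and 13.6% hold TATAAA on either strand. The letters TGACNNNGC (antioxidant response element, in 12.4% of promoters), AGGTCA (nuclear receptor half-site, in 16.3%) and CACGTG (in 7.15%) were not in the Ces1g window. Among the 6 members, AGGTCA was found in Ces2a alone.

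The Ces1 genes next to Ces1g did not share its pattern. Ces1d was at 423, 416 and 534 CPM in WT LS, 422, 705 and 72.1 CPM in KO LS, 368, 614 and 559 CPM in WT MS and 856, 855 and 563 CPM in KO MS. The groups overlapped on both diets, and S12 was the lowest library. Its log2 fold change was -0.20 ± 0.551 on low selenium, which became 0.27 without S12, and 0.56 ± 0.552 on adequate selenium, which became 0.12 without S7 and S8.

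Ces1e encodes egasyn, which holds beta-glucuronidase in the endoplasmic reticulum. It was at 103 to 188 CPM in the 11 libraries other than S12 and at 24.2 CPM in S12, with log2 fold changes of -0.35 ± 0.490 (low selenium; 0.10 without S12) and 0.35 ± 0.490 (adequate selenium; 0.16 without S7 and S8). Ces1f was at 305 to 500 CPM in 11 libraries and at 36.7 CPM in S12. Its log2 fold changes were -0.50 ± 0.573 (-0.01 without S12) on low and 0.11 ± 0.572 on adequate selenium, the latter turning to -0.40 without S7 and S8 and to -0.10 with library totals alone. Neither gene had groups apart on either diet.

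Ces1c, the most abundant member, was at 2379, 2598 and 2590 CPM in WT LS, 2258, 2621 and 1188 CPM in KO LS, 2296, 2890 and 2858 CPM in WT MS and 4106, 3479 and 2166 CPM in KO MS. S7 and S8 were the highest libraries and S12 the lowest, and the groups overlapped on both diets. The log2 fold change was -0.32 ± 0.351 on low selenium (-0.08 without S12). On adequate selenium it was 0.28 ± 0.351, but -0.32 without S7 and S8 and 0.05 with library totals alone. Ces1b, its closest relative and the scarcest Ces1 member, followed it in S7 and S8 (52.0 and 47.4 CPM) but not in S12 (42.5 CPM), against 18.2 to 38.6 CPM elsewhere. Its log2 fold change was 0.34 ± 0.361 on low selenium (0.14 without S12) and 0.53 ± 0.362 on adequate selenium, the latter -0.59 without S7 and S8, where S9 is the only KO MS library. The share of Rn45s in S7 and S8 moved with these values. So did the sum of 5 red blood cell markers, at 1021 CPM in S7 and 860 CPM in S8 against 230 to 725 CPM elsewhere. The part of either was not tested. With Rn45s taken out of the table and totals and TMM factors recomputed, the log2 fold changes on adequate selenium were 0.29 for Ces1c and 0.54 for Ces1b. TMM trims single extreme genes, so this fit could hardly move the values, and nothing is read from it.

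Ces2b was the member with the largest difference on low selenium, at very low counts. Its estimated counts were 21, 14 and 9 in WT LS and 1, 2 and 1 in KO LS, and 7, 1 and 3 in WT MS and 1, 1 and 1 in KO MS. WT LS thus lay above KO LS in every library, WT MS and KO MS shared the value 1, and both KO groups were near the floor. Ces2b was over the minimum of the low-count filter (1.10 CPM) in the 3 WT LS libraries and in 0 of the other 9, so it was tested only through the group where it is high, and all its differences from WT LS are descriptions. Corrected for library size, KO LS held 0.0468 of the WT LS level (4 against 44 counts, exact 95% interval 0.0122 to 0.129) and KO MS 0.289 of the WT MS level (3 against 11 counts, 0.0518 to 1.10). These intervals cover counting error only. The fitted log2 fold change was -4.37 ± 0.779 on low selenium (-3.97 without S12, -3.63 without S1) and -1.69 ± 0.972 on adequate selenium. The latter was -2.05 without S7 and S8, -0.80 without S4 and -0.30 with limma-voom, and at these counts such values depend on the method. Ces2b lies at chr8:104831644-104838652.

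Ces2a, the other Ces2 member, had higher values in KO MS (159, 223 and 161 CPM) than in WT MS (131, 144 and 142 CPM), without overlap. On low selenium it was at 113, 174 and 163 CPM in WT and at 171, 206 and 24.9 CPM in KO, where the groups overlapped. The log2 fold changes were 0.38 ± 0.514 on adequate selenium, 0.20 without S7 and S8, and -0.17 ± 0.514 on low selenium, 0.30 without S12.

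The Ces3 pair differed little by genotype on adequate selenium, and on low selenium its difference was smaller without S12. Ces3a was at 1602, 1740 and 1686 CPM in WT LS, 1298, 1669 and 374 CPM in KO LS, 1268, 1735 and 1703 CPM in WT MS and 1355, 1768 and 1675 CPM in KO MS. Ces3b was at 380, 486 and 508 CPM in WT LS, 350, 346 and 15.3 CPM in KO LS, 336, 399 and 442 CPM in WT MS and 327, 462 and 349 CPM in KO MS. In Ces3b every KO LS library lay below every WT LS library, whereas Ces3a overlapped. Their log2 fold changes on low selenium were -0.59 ± 0.424 and -0.95 ± 0.691, and -0.20 and -0.42 without S12. On adequate selenium they were 0.03 ± 0.422 and -0.05 ± 0.685, and 0.08 and -0.18 without S7 and S8.

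**Figure D3:**
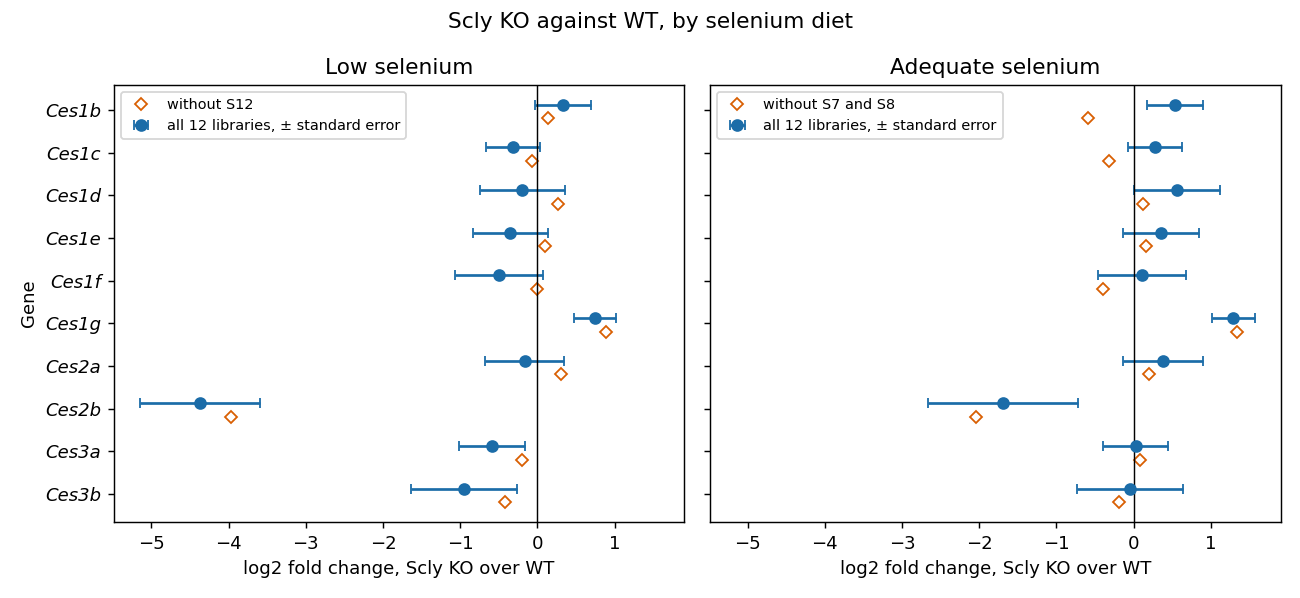
The log2 fold change of Scly KO over WT for each gene on low (left) and adequate selenium (right), as filled points with standard errors from all 12 libraries and as open diamonds without S12 (left) or without S7 and S8 (right). Ces1g lies above 0 in each of these fits, and Ces2b lies below 0 in each.

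Counted by test, no member passed the threshold of an adjusted p of 0.05 (edgeR quasi-likelihood test, Benjamini-Hochberg over all 12009 genes) for KO against WT on either diet, where 0.00833% of genes did on each diet, a single gene that was Scly. At an unadjusted p under 0.05 there were 2 of 10 members on low selenium (Ces1g higher, Ces2b lower), against 11.2% of all genes, and 1 of 10 on adequate selenium (Ces1g higher), against 0.924%. DESeq2 called Ces2b on low selenium (0.391% of genes called) and Ces1g on adequate selenium (0.025%). Limma-voom called Ces2b on low selenium (0.749%) and Ces1b and Ces1g on adequate selenium (7.54%). Since these contrasts chose the members, nothing is read from the counts.

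Groups did not overlap on low selenium for Ces1g, which was higher in KO (13.2% of all genes), and for Ces2b and Ces3b, which were lower (11.8%). On adequate selenium they did not overlap for Ces1g and Ces2a, both higher in KO (2.23%), and no member was lower without overlap (2.49%). On low selenium 2 of 10 members had a log2 fold change above 0 (54.2% of all genes) and the median was -0.33, against 0.06 over all genes. Without S12 there were 5 of 10 above 0 and a median of 0.05. On adequate selenium 8 of 10 were above 0 (54.8% of all genes) with a median of 0.32, against 0.03 over all genes, and without S7 and S8 5 of 10 with a median of -0.05.

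The low values of S12 ran through most of the family. It was the lowest of the 12 libraries in 8 of 10 members, against 25% of all genes, with Ces1b and Ces1g as the exceptions. Among the 8 was Ces2b, at 1 count in S12 and also in S5, S7, S8, S9 and S10. Its rank there follows library size, and it passed the low-count filter only through WT LS, so nothing is read from that rank. In 6 of 10 members (6.81% of all genes) S12 lay under 0.5 times the lower of S10 and S11, and in 5 of 10 (1.41%) under 0.2 times. The lower of S10 and S11 exceeded S12 by 22.6-fold in Ces3b, 9.29-fold in Ces1f, 6.88-fold in Ces2a, 5.85-fold in Ces1d, 5.05-fold in Ces1e, 3.47-fold in Ces3a and 1.90-fold in Ces1c. The members made up 0.285% of counts in S12 and 0.511% to 0.658% in the other libraries. In bulk tissue, fewer cells of a type and less RNA per cell cannot be told apart. In S12 the summed bile duct and hepatocyte markers given above moved with these values, and their part was not tested. The members summed to 1866 CPM in S12 and to 4922 to 7678 CPM in the other libraries. In S1, with the next lowest hepatocyte sum, they summed to 5578 CPM. Single hepatocyte markers did not move alike. Over the KO LS libraries Cps1 spanned only 4575 to 4681 CPM, whereas Hnf4a spanned 381 to 669, Alb 49200 to 74760 and Cyp2e1 836 to 6699 CPM.

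**Figure D4:**
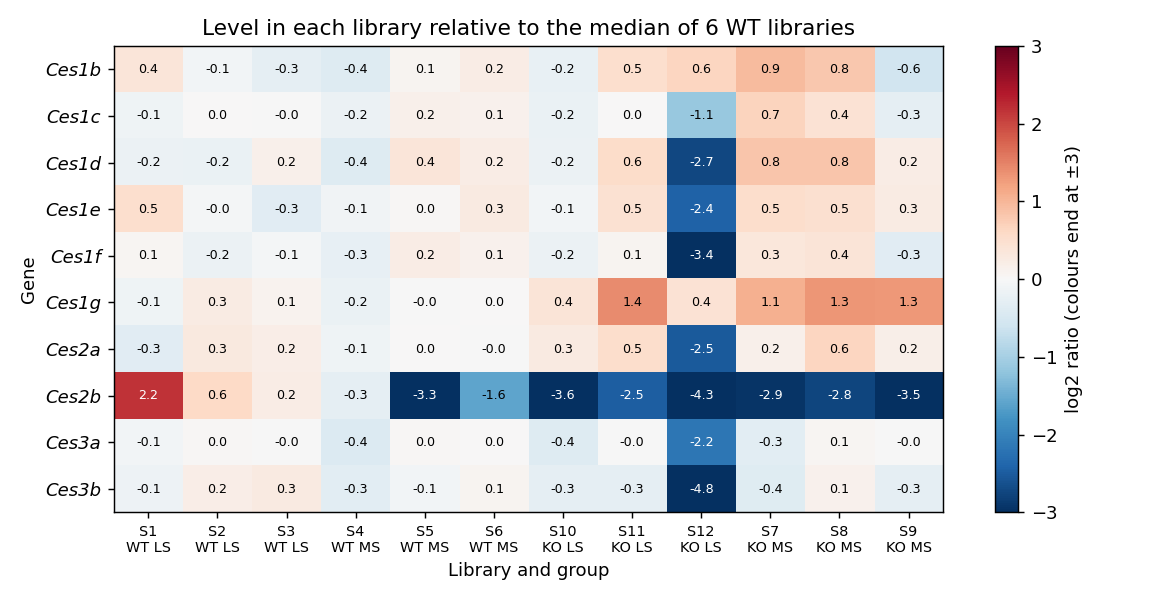
The log2 ratio of each gene in each library to its median over 6 WT libraries, with libraries ordered by group and colours ending at 3 in both directions. S12 is negative in 8 of 10 genes, and Ces1g is positive in all 6 KO libraries. Ces2b is negative in all 6 KO libraries and also in S4, S5 and S6 (WT MS).

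Selenium supply in WT mice was not used to choose the members, although it shares the WT libraries with the genotype contrasts. No member passed the threshold for low against adequate selenium in WT (0% of genes by edgeR, 2.29% at an unadjusted p under 0.05). Neither of the other tools called a member (0.0167% of genes called by DESeq2, 0.15% by limma-voom). Of the 10, 7 had a log2 fold change above 0 (51.8% of all genes), and all but Ces2b lay between -0.17 and 0.22. Ces2b had 21, 14 and 9 counts on low and 7, 1 and 3 on adequate selenium, and the groups did not overlap (5.21% of genes higher in this way, and 6.48% lower, with no member among the latter). Since Ces2b passed the filter only through WT LS, a difference from WT MS was built in, and nothing is read from its test here. As a description, its level on low selenium was 4.99 times that on adequate selenium (44 against 11 counts, exact 95% interval 2.54 to 10.7, which covers counting error only), and its log2 fold change was 2.43 ± 0.683, from 1.68 without S1 to 3.34 without S4 over the alternatives. It was also the single member at an unadjusted p under 0.05. Ces4a, a neighbour of low level outside the 10, also had WT LS (5.46, 2.65 and 2.49 CPM) above WT MS (0.881, 1.23 and 1.30 CPM), with an adjusted p of 1. Ces2e, also outside the 10 and far more abundant, went the other way without overlap. It was at 115.9, 191.6 and 183.9 CPM in WT LS and 207.5, 237.4 and 285.5 CPM in WT MS. Of the 5 tested carboxylesterases outside the 10, 2 had a log2 fold change above 0 and 3 below.

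Diet in Scly KO mice shares the KO libraries with the genotype contrasts. All 10 members had a log2 fold change below 0 for low against adequate selenium, from -0.92 (Ces1d) to -0.17 (Ces1b), where 53.3% of all genes were above 0. None passed the threshold (0% of genes by edgeR), and none had an unadjusted p under 0.05 (21.9% of genes). The smallest unadjusted p was that of Ces1c (log2 fold change -0.68 ± 0.353, adjusted p = 0.250, edgeR). Without S12, 8 of 10 were below 0 and the values ran from -0.44 to 0.13, and without S7, S8 and S12, 4 of 10 were. Limma-voom with sample quality weights called Ces1b, Ces1c, Ces1d and Ces1g here, in a comparison where it called 49.9% of all genes. DESeq2 called no member (1.07% of all 12009 genes called). It left 9318 genes, 2 members among them, without an adjusted p, and that share counts these as not called. KO LS and KO MS did not fall apart without overlap in any member (5.54% of genes higher, 5.33% lower).

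The genotype by diet interaction asks whether the KO against WT difference itself differed between the diets. It is the difference of the contrasts that chose the members, so its values are descriptions. It was not called for any member (0% of genes by edgeR, 6.73% at an unadjusted p under 0.05, where 0 members lay). For Ces1g it was -0.54 ± 0.382 (log2), with the larger fold change on adequate selenium, and nothing is read from its test. In the study's quantitative PCR of Ces1g, this interaction was marked as significant by analysis of variance. For Ces2b, tested only through WT LS, the interaction in the libraries was -2.68 ± 1.45. Limma-voom called Ces2b (17.3% of genes called), and nothing is read from that call. All 10 values were below 0, where 53.4% of all genes were above 0. They were so without S12 too (-2.28 to -0.07), but only 5 of 10 were without S7, S8 and S12. The filter favoured a value below 0 in Ces2b, and the other values come from the contrasts that chose the members. Nothing is therefore read from these counts.

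Other genes of ester and lipid metabolism did not pass the threshold, although some differed widely between single libraries. Of 25 other lipases and esterases, 24 were tested and none was called on either diet, with medians of -0.07 on low and 0.05 on adequate selenium. At an unadjusted p under 0.05 on low selenium were 2 of 24, against 11.2% of all genes. One was Abhd5, the activator of adipose triglyceride lipase (log2 fold change -0.85 ± 0.303, adjusted p = 0.439, edgeR, and -0.78 without S12). The other was Abhd2, a serine hydrolase, at 21.6, 29.2 and 34.9 CPM in WT LS and 51.7, 34.6 and 209 CPM in KO LS. S12 was far above all other libraries there, and the log2 fold change of 1.78 ± 0.661 (adjusted p = 0.439, edgeR) was 0.56 without it.

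Of 16 genes of lipoprotein assembly and triglyceride synthesis, 15 were tested and none was called, with 3 of 15 at an unadjusted p under 0.05 on low selenium, against 11.2% of all genes. Cidec, a lipid droplet protein, was at 0.455, 1.15 and 2.08 CPM in WT LS and 3.07, 2.41 and 72.1 CPM in KO LS. Its log2 fold change of 4.32 ± 1.22 (adjusted p = 0.439, edgeR) rested on S12 and was 1.05 without it. The droplet coat protein Plin5 had -1.05 ± 0.330 (-1.06 without S12, -0.44 without S1), and Plin2, another, 0.79 ± 0.267 (0.50 without S12), both with the same adjusted p.

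Of 14 transcription factors and receptors known to act on mouse carboxylesterase genes or on liver drug metabolism, all 14 were tested and none was called on either diet. The medians were 0.09 on low and 0.10 on adequate selenium. The lowest p on adequate selenium was that of Ahr, the aryl hydrocarbon receptor (0.65 ± 0.245, adjusted p = 0.9995, edgeR). On low selenium it was that of Nr1h3, the oxysterol receptor LXR alpha (-0.65 ± 0.336, adjusted p = 0.448, edgeR, and -0.44 without S12). Nfe2l2, which encodes NRF2, had 0.22 ± 0.189 on adequate selenium (adjusted p = 0.9995, edgeR).

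The 5 genes most like Ces1g over the 12 libraries, by Pearson's r of log2 CPM, were Zfp667 (r = 0.825), Gclc, the catalytic subunit of the first enzyme of glutathione synthesis (0.807), Golph3l (0.787), Fig4 (0.772) and Abcc3, an exporter of organic anions (0.772). The corresponding values of Spearman's rho were 0.818, 0.867, 0.825, 0.699 and 0.699. These describe libraries that share genotype, diet and scaling, and no p is given. For Ces3a and Ces3b the most like genes included each other (r = 0.979), while S12 was the lowest library in both and the pair shares reads.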

How the data were processed

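Liver RNA of 12 libraries, 3 for each genotype and diet, was analysed from gene counts, and every value column had a group (0 did not). The authors trimmed reads with Cutadapt after FastQC, used STAR within Partek Flow to align them to mm10, and deposited estimated counts from Partek E/M, of which 89.8% were whole. Their versions, and the annotation, were not given in the sources used here. A deposited table of the authors' DESeq2 comparisons (p-value, FDR, fold change) was not used.

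Estimated counts were rounded, filtered by filterByExpr (minimum count 10, 12009 genes) and scaled by TMM. With edgeR 4.0.16 (R 4.3.3), a quasi-likelihood model of the 4 groups was fitted, with Benjamini-Hochberg adjustment at 0.05, after a check on simulated data. SE is the fold change over the root of F. Alternatives were DESeq2 1.42.0, limma-voom (limma 3.58.1) with quality weights, RLE, upper-quartile and total scaling, 2 other filters, unrounded counts, only the groups compared and each library left out. Leaving out S7 and S8, S12 with them, or Rn45s was chosen after seeing the data. Sequences came from GENCODE vM21 transcripts, RefSeq promoters and the study's primer list, aligned with Biopython 1.88. Protein sequences were not analysed here.

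The 10 members and the gene lists were chosen with earlier results of these data known. The rule named all members, Scly, every other carboxylesterase, up to 4 listed genes with the smallest p, the regulators and the 5 genes most like Ces1g. Ces4a and Ces2e values per library, Gm7208 and genes like Ces3a were picked after their values were seen. Counts totalled 4797067 to 11762165 per library, and at 1 to 21 counts only Ces2b was limited by depth.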

Additional observations from a re-analysis of the deposited data

How the results depend on the processing

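By edgeR, 0 of 10 members were called in each of the 5 contrasts, under every scaling, filter and left-out library. Other tools gave more calls: on low selenium 1 by DESeq2 and 1 by limma-voom, on adequate selenium 1 by DESeq2 and 2 by limma-voom, for diet in Scly KO 4 by limma-voom, and for the interaction 1 by limma-voom. The cause was not tested. Of the log2 fold changes of single members described above, 558 values under the alternatives stayed on their side or within the spread between libraries, and 9 moved further. Those 9 were Ces2b under limma-voom (-3.29 on low and -0.30 on adequate selenium), without S1 (-3.63) and without S4 (-0.80), Ces1g on low selenium without S11 (0.33), and Ces1b and Ces1c on adequate selenium without S7 and S8 (-0.59 and -0.32) or without S12 as well (-0.57 and -0.31). Ces1c for diet in Scly KO turned to 0.17 without S7, S8 and S12. The 558 values are no measure of robustness. The spread includes S12, and many alternatives leave out libraries of groups outside the contrast. Signs could change within it: Ces1d on low selenium went from -0.20 to 0.27 without S12. Ces1f on adequate selenium kept its sign in 19 of 24 alternatives. Scaling to library totals alone moved the median of all genes to 0.37 on low selenium, -0.13 on adequate selenium, 0.51 for diet in Scly KO and 0.54 for the interaction. Ces1g, at 1.02 on low and 1.14 on adequate selenium on that scale, stayed above the shifted median. A minimum of 10 counts in every library removed Ces2b, so that setting gave no value for it. No paired analysis was possible because the library columns carry no replicate number from the labels. Depth limited Ces2b alone.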
